A study of Gallus gallus with 15 samples.

Results

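Adipokines, the proteins that adipose tissue secretes into the blood, were examined together with their receptors in abdominal fat of young chickens. The set held 8 genes: the adipokines ADIPOQ (adiponectin), RBP4 (retinol-binding protein), NAMPT (also called visfatin), RARRES2 (chemerin) and ANGPTL4, and the receptors ADIPOR1, ADIPOR2 and LEPR. Members were all probe sets that the array's annotation gives to these genes, which were 13 of 38535 in the table. The annotation lists the 3 NAMPT probe sets under the symbol NAMPTP1, and they were matched through the RefSeq gene entry, which carries NAMPT as a synonym. The birds were 15 male ISA915 broilers, a line bred for meat, aged 16 to 17 days, with 5 birds a group and 1 Affymetrix GeneChip Chicken Genome Array per bird. Fasted birds had no feed for 5 h and received normal porcine serum. Insulin-neutralized birds could eat, and porcine serum holding antibodies against insulin was given to them at 0, 2 and 4 h. Fed birds had feed and received normal porcine serum, so that all 3 groups were given porcine serum. Fasted vs. fed birds show the effect of a short fast, insulin-neutralized vs. fed birds the effect of blocking insulin while feed is present, and insulin-neutralized vs. fasted birds the difference between both treatments.

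Adiponectin is made mainly by adipocytes and acts through ADIPOR1 and ADIPOR2, membrane receptors of the PAQR family that in mammals act through AMP-activated protein kinase and PPAR signaling. NAMPT is both a secreted protein and, inside cells, the enzyme that makes nicotinamide mononucleotide from nicotinamide, the rate-limiting step of NAD salvage in mammals. Chemerin attracts immune cells and acts in adipocyte differentiation, RBP4 carries retinol in plasma, and ANGPTL4 inhibits lipoprotein lipase. In mammals the leptin receptor LEPR carries the signal of leptin to the brain.

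Values are log2 signals after GCRMA, a procedure that corrects each probe for background by its sequence and normalizes the arrays to each other. Following the methods, probe sets below 3 on at least 5 arrays were removed, which left 18612 of the table. Of the 13 members, 7 probe sets of 5 genes were kept: 2 of NAMPT, 2 of ADIPOR2 and 1 each of ADIPOQ, ADIPOR1 and RARRES2. Those removed were 1 probe set of NAMPT and every probe set of ANGPTL4, RBP4 and LEPR. A call below means a p from limma that stayed under 0.05 after Benjamini-Hochberg adjustment over these probe sets, done for each comparison separately. Fed birds 4 and 5 had the lowest mean correlation with the other arrays, at 0.955 and 0.958, against 0.963 to 0.977 for the remaining birds, so values without them are given where they matter. All 7 adipocyte markers listed (PLIN1, FABP4, LPL, PPARG, CEBPA, CIDEC and ADIPOQ) were kept. FABP4 averaged 16.34 in fasted, 16.35 in insulin-neutralized and 16.26 in fed birds. The mean of the 7 markers was higher in every fed bird (13.03 to 13.20) than in any other bird. It was 12.37 to 12.93 in fasted and 12.34 to 13.01 in insulin-neutralized birds. Of these markers CEBPA and PPARG had the largest fasted vs. fed differences, -1.48 and -0.82, and were called lower, as given below. The others were not called, at -0.14 (PLIN1), 0.08 (FABP4), -0.41 (LPL), 0.28 (CIDEC) and 0.002 (ADIPOQ). In insulin-neutralized vs. fed birds the 7 ranged from -0.76 (CEBPA) to 0.09 (FABP4), with 0 called.

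NAMPT was the member that changed with feeding. On its probe set of highest signal, the first of 3, the log2 values were 11.12, 12.44, 11.41, 12.10 and 10.63 in fasted birds, against 9.40, 9.87, 9.85, 9.48 and 8.99 in fed birds. Every fasted bird lay above every fed bird. The means were 11.54 ± 0.74 in fasted and 9.52 ± 0.37 in fed birds (SD, n = 5 each), a log2 fold change of 2.02 with an SE of 0.29. NAMPT was thus 4.06-fold higher in fasted birds (95% interval 2.65 to 6.23, FDR adjusted p = 0.000635 from limma) and stood at rank 55 by fold among the 921 probe sets called higher. As whole tissue was measured, a change in the number of cells that express a gene and a change in RNA per cell cannot be told apart.

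The second probe set of NAMPT that was kept gave 7.87, 8.62, 7.65, 8.63 and 6.70 in fasted birds and 6.09, 6.56, 6.56, 6.02 and 6.35 in fed birds. The groups again did not overlap, though fasted bird 5, the lowest fasted bird on both probe sets, lay close to the fed birds. NAMPT was 2.98-fold higher in fasted birds on this probe set (95% interval 1.91 to 4.67, adjusted p = 0.00479 from limma). These were the 2 of 7 member probe sets kept that were called higher in fasted birds, where 4.95% of all 18612 probe sets tested were, and none was called lower. Both calls belong to 1 gene. The first held under every alternative run, with adjusted p from limma up to 0.00945. The second held under every alternative that included it (up to 0.0292), and the fit with 1 probe set per gene left it out. Without fed birds 4 and 5 the log2 fold changes were 1.83 (adjusted p = 0.00609 from limma) and 1.49 (adjusted p = 0.0278).

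Between insulin-neutralized and fed birds NAMPT was not called. On the first probe set the log2 values of insulin-neutralized birds were 9.56, 9.85, 9.85, 9.78 and 9.54, with a mean of 9.72 ± 0.16, which lies within the range of the fed birds given above. The difference between insulin-neutralized and fed birds was 0.20 on the log2 scale (1.15-fold, 95% interval 0.75 to 1.76, adjusted p = 0.747 from limma). The interval does not reach the lower bound of the fasted vs. fed fold, 2.65. On the second probe set the difference was 0.22 (adjusted p = 0.736 from limma). Of the 7 member probe sets kept, 0 were called between insulin-neutralized and fed birds, where limma called 0.494% of all probe sets tested, and 2 had an unadjusted p under 0.05, as did 17.5% of all probe sets.

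Insulin-neutralized birds had less NAMPT than fasted birds. All 5 insulin-neutralized birds lay below all 5 fasted birds on the first probe set, at most 9.85 against at least 10.63. The difference was -1.82 on the log2 scale (SE 0.29), or 3.54-fold lower in insulin-neutralized birds (95% interval of the ratio 0.185 to 0.433, adjusted p = 0.00293 from limma), and it was called under every alternative run. On the second probe set insulin-neutralized birds had 6.13, 6.56, 6.56, 6.56 and 6.86, and bird 5 of this group lay above fasted bird 5. NAMPT was 2.57-fold lower on this probe set (adjusted p = 0.0219 from limma), a call that was lost without fasted bird 4 (0.0551), insulin-neutralized bird 1 (0.0598) or insulin-neutralized bird 3 (0.0505), with no filter on low values (0.0643) and with only these groups in the fit (0.0522). Of the 7 member probe sets kept, 2 were called lower in the insulin-neutralized vs. fasted comparison, where 2.53% of all probe sets tested were, and both are NAMPT.

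**Figure D1:**
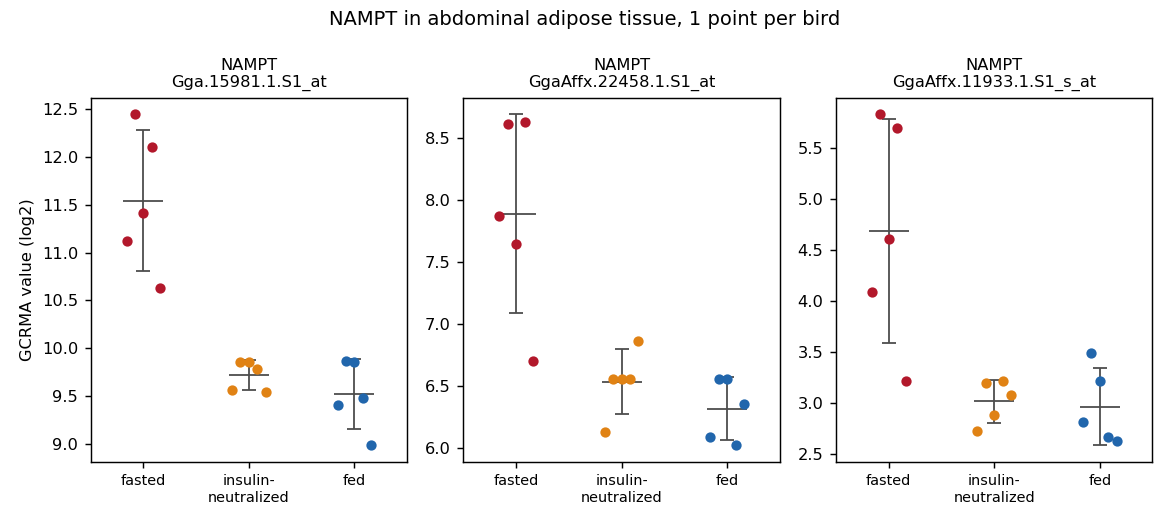
Log2 GCRMA values of the 3 NAMPT probe sets, 1 point per bird, with the mean (bar) and SD (whiskers) of 5 birds a group; each panel has its own axis. On the left panel the fasted birds lie between 10.63 and 12.44, above all insulin-neutralized birds (9.54 to 9.85) and all fed birds (8.99 to 9.87).

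The third probe set of NAMPT was removed for lying below 3 on 5 arrays. Its suffix marks probes that match more than 1 transcript. It gave 4.09, 5.83, 4.61, 5.69 and 3.22 in fasted birds, 2.72, 3.19, 2.89, 3.22 and 3.08 in insulin-neutralized birds and 2.81, 3.49, 3.22, 2.67 and 2.63 in fed birds. Fasted birds 2 and 4 were highest, as on the other probe sets, and only fasted bird 5 overlapped with the other groups. The methods' filter can also be read as keeping probe sets at 3 or more on at least 5 arrays, and this reading keeps it, with a fasted vs. fed difference of 1.72 (adjusted p = 0.0161 from limma) and an insulin-neutralized vs. fasted difference of -1.67 (adjusted p = 0.0328). With no filter the adjusted p-values were 0.049 and 0.0987. Across the 15 birds the 3 NAMPT probe sets ran together, with Pearson r of 0.948 to 0.966, and their deviations from the group means correlated at 0.817 to 0.945, over groups of which the fasted one had by far the widest spread. Insulin-neutralized bird 5 was the lowest of its group on the first probe set and the highest on the second. These are repeated measures of 1 RNA sample per bird. On the second probe set 5 birds carried an identical value of 6.56, and on the third 3 birds carried an identical 3.22.

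The genes whose levels ran most like NAMPT over the 15 birds were ACSL4, COQ10B and EAF2. ACSL4, which activates long-chain fatty acids, had the highest Pearson r, 0.973, and a 3.10-fold higher level in fasted vs. fed birds. COQ10B, a mitochondrial protein that binds coenzyme Q, had r = 0.967 and was 7.0-fold higher. EAF2, which acts in transcription elongation, had r = 0.96 and was 4.52-fold higher. These genes were picked for their r with NAMPT over the same birds, so their higher level in fasted birds follows largely from the choice. After the group means were taken out, the r of these genes with NAMPT was 0.87, 0.845 and 0.872, which is not free of that choice either. The r values describe these 15 birds, which share 1 normalization, and most of the spread over birds lies between the fasted and the other groups.

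Neither adiponectin nor its receptors had a call in any comparison. ADIPOQ had a strong signal in every bird, with log2 values of 12.85, 12.48, 12.99, 13.18 and 13.40 in fasted, 12.96, 13.33, 12.74, 12.23 and 13.31 in insulin-neutralized and 12.72, 12.90, 12.88, 12.79 and 13.60 in fed birds. The groups overlapped over most of their ranges, and the highest value belonged to fed bird 5. The fold was 1.0 in fasted vs. fed birds (95% interval 0.708 to 1.42, adjusted p = 0.999 from limma) and the ratio of insulin-neutralized to fed birds had an interval of 0.677 to 1.35 (adjusted p = 0.913). These intervals leave room for a change of up to 1.42-fold in fasted birds.

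ADIPOR1, one of the receptors, lay in a narrow band. Its log2 values were 8.47, 8.18, 8.35, 8.42 and 8.30 in fasted birds, 8.12, 8.01, 8.14, 7.95 and 8.10 in insulin-neutralized birds and 8.15, 8.08, 8.18, 8.71 and 8.57 in fed birds. All 5 insulin-neutralized birds lay below all 5 fasted birds, and fed birds 4 and 5 stood above every other bird. The insulin-neutralized vs. fasted difference of -0.28 (SE 0.12, 95% interval -0.54 to -0.02) had an unadjusted p of 0.0354 and missed the threshold after adjustment (adjusted p = 0.236 from limma). It passed without fed birds 4 and 5 (adjusted p = 0.0304 from limma), where the difference itself stayed at -0.28, and with array weights (0.029). Calls over all probe sets in this comparison rose as well, from 756 to 1512 without these birds and to 1789 with array weights. The insulin-neutralized vs. fed difference of -0.27 (adjusted p = 0.263 from limma) was -0.07 without fed birds 4 and 5 (adjusted p = 0.847), and the fasted vs. fed difference was 0.01 with them (adjusted p = 0.981) and 0.21 without them (adjusted p = 0.13).

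ADIPOR2, the other receptor, was measured by 2 probe sets that did not give the same picture. The one of higher signal, which matches alternative transcripts of the gene, gave 12.30, 12.22, 12.62, 12.30 and 12.38 in fasted, 12.11, 12.34, 11.98, 12.22 and 12.10 in insulin-neutralized and 11.95, 12.09, 11.997, 12.14 and 12.52 in fed birds. Its groups overlapped, and the differences were 0.23 in fasted vs. fed (adjusted p = 0.256 from limma), 0.01 in insulin-neutralized vs. fed (adjusted p = 0.967) and -0.21 in insulin-neutralized vs. fasted birds (adjusted p = 0.38). Without fed birds 4 and 5 the fasted vs. fed difference was 0.35 (adjusted p = 0.0567 from limma).

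The other probe set of ADIPOR2 spread more widely. It gave 9.56, 10.24, 10.19, 10.27 and 10 in fasted, 7.87, 9.55, 8.48, 9.55 and 9.11 in insulin-neutralized and 9.24, 9.05, 10.08, 9.60 and 9.91 in fed birds. Insulin-neutralized bird 1 was lowest, and the insulin-neutralized and fasted birds did not overlap only by a margin in the third decimal. The insulin-neutralized vs. fasted difference was -1.14 (SE 0.31, 2.20-fold lower, 95% interval of the ratio 0.288 to 0.719), with an unadjusted p of 0.00243 and an adjusted p of 0.0549 from limma, just outside the threshold. It was called without insulin-neutralized bird 2 (0.0417), without insulin-neutralized bird 4 (0.0465) and with array weights (0.0318). Over all probe sets, calls in this comparison went from 756 to 612, 505 and 1789 in these settings. Without insulin-neutralized bird 1 the ADIPOR2 difference was -0.88 (adjusted p = 0.107). The insulin-neutralized vs. fed difference was -0.66 (adjusted p = 0.285 from limma) and -0.40 without insulin-neutralized bird 1 (adjusted p = 0.508). Over the 15 birds the 2 probe sets had a Pearson r of 0.544. The suffix of the second marks probes that match more than 1 transcript, so its values may include another transcript, which was not tested.

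RARRES2, the gene of chemerin, was also without a call. Its log2 values were 12.08, 12.13, 12.27, 12.11 and 12.66 in fasted, 11.96, 12.12, 11.94, 12.18 and 12.07 in insulin-neutralized and 11.998, 12.28, 11.87, 12.54 and 12.73 in fed birds. Fed birds 4 and 5 were among the highest 3 birds of the study, and the groups overlapped. The differences were -0.03 in fasted vs. fed (adjusted p = 0.926 from limma), -0.23 in insulin-neutralized vs. fed (adjusted p = 0.465) and -0.19 in insulin-neutralized vs. fasted birds (adjusted p = 0.6). The fasted vs. fed difference turned to 0.20 without fed birds 4 and 5 and to 0.11 with array weights, so it has no settled sign. The 95% intervals of the fold reached 0.769 to 1.24 in fasted vs. fed birds.

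**Figure D2:**
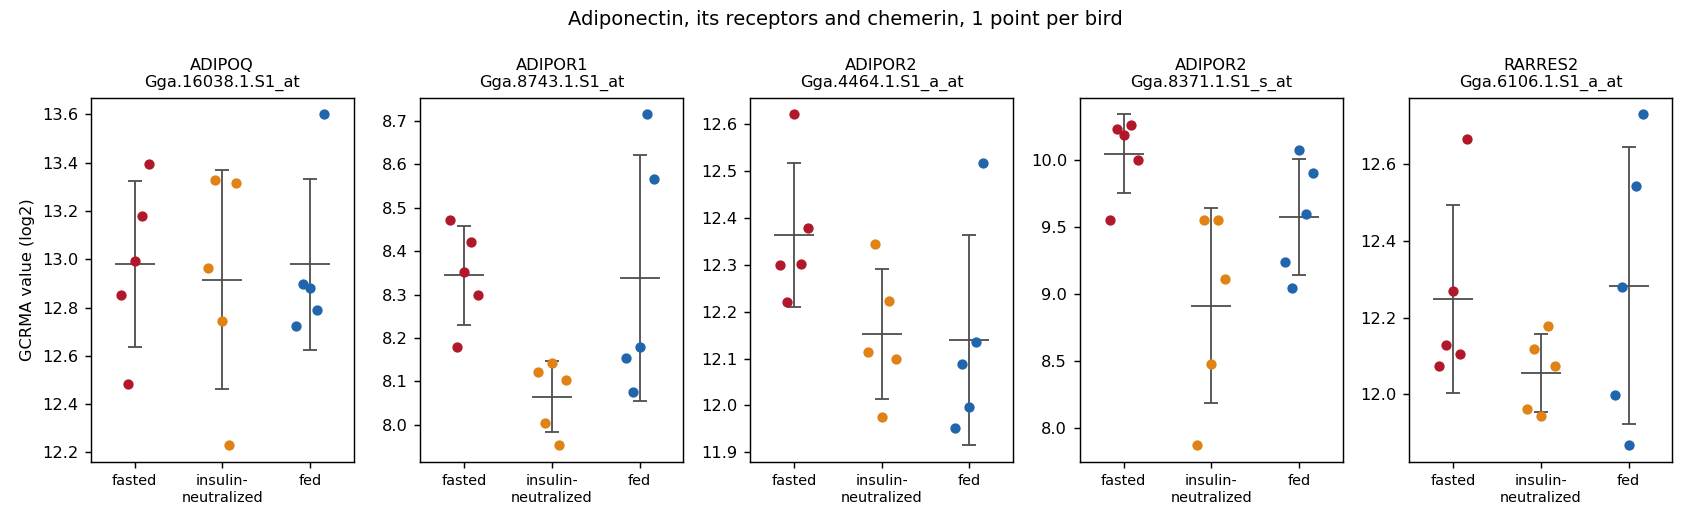
Log2 GCRMA values of adiponectin (ADIPOQ), its receptors ADIPOR1 and ADIPOR2 and chemerin (RARRES2), 1 point per bird, with mean (bar) and SD (whiskers) of 5 birds a group; each panel has its own axis. ADIPOR1 and the right ADIPOR2 panel show insulin-neutralized birds below fasted birds, and fed birds 4 and 5 stand at 8.71 and 8.57 on ADIPOR1. Neither of these insulin-neutralized vs. fasted differences was called (adjusted p = 0.236 and 0.0549 from limma). On the right ADIPOR2 panel the highest insulin-neutralized bird is at 9.553 and the lowest fasted bird at 9.556.

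**Figure D3:**
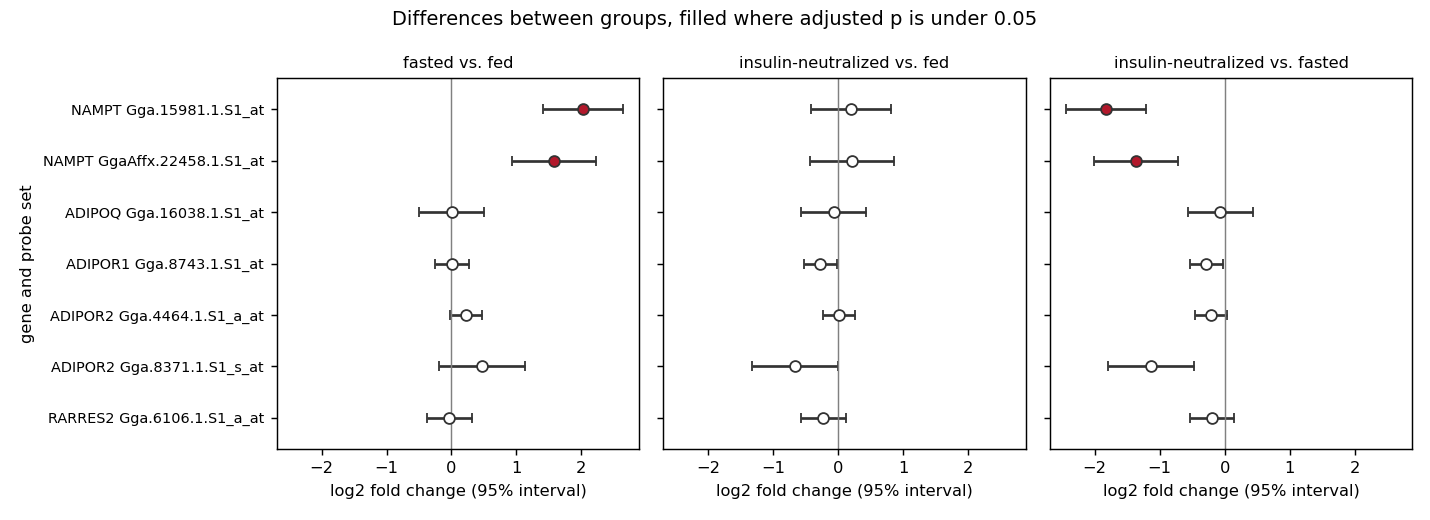
Log2 fold changes (x axis) of the 7 member probe sets kept, in 3 panels for the comparisons, with 95% intervals; filled points had an adjusted p under 0.05. The filled points are the NAMPT probe sets, at 2.02 and 1.58 in fasted vs. fed birds and -1.82 and -1.36 in insulin-neutralized vs. fasted birds.

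The remaining members gave almost no signal. No value in the table lies under 2.18, and on each array 33.0% to 34.7% of probe sets sit at this minimum. RBP4 lay at it in 14 of 15 birds, and the exception was insulin-neutralized bird 4 at 2.20. The RefSeq gene entry of this probe set also carries RBP4B as a synonym, and the annotation's symbol RBP4 was used. Which transcript its probes match was not tested. The 3 probe sets of LEPR lay between 2.18 and 2.42 in all birds, with the highest value in fasted bird 3. Fold changes of these genes are not given, as their values were below 3 on all 15 arrays. A signal at this minimum says that these probes did not rise over background, not that the transcript was absent.

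ANGPTL4 was near the minimum too, but not in every bird. Its log2 values were 2.26, 2.88, 3.09, 3.33 and 2.26 in fasted birds, against 2.26, 2.26, 2.24, 2.26 and 2.26 in insulin-neutralized birds and 2.26 in all 5 fed birds. Fasted birds 2, 3 and 4 alone stood above the rest, and fasted birds 1 and 5 did not differ from the other groups. As the probe set was below 3 on 13 arrays it was removed by the filter, and in a fit with no filter the fasted vs. fed difference was 0.50 (SE 0.17, unadjusted p = 0.0134, adjusted p = 0.186 from limma). Values so close to background compress differences, so no fold is read from them. Fasted birds 2 and 4 were also the highest 2 birds on NAMPT. Fasted bird 3, which stood above fasted bird 2 on ANGPTL4, was not. On the second NAMPT probe set it lay below fasted bird 1, at 7.65 against 7.87.

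**Figure D4:**
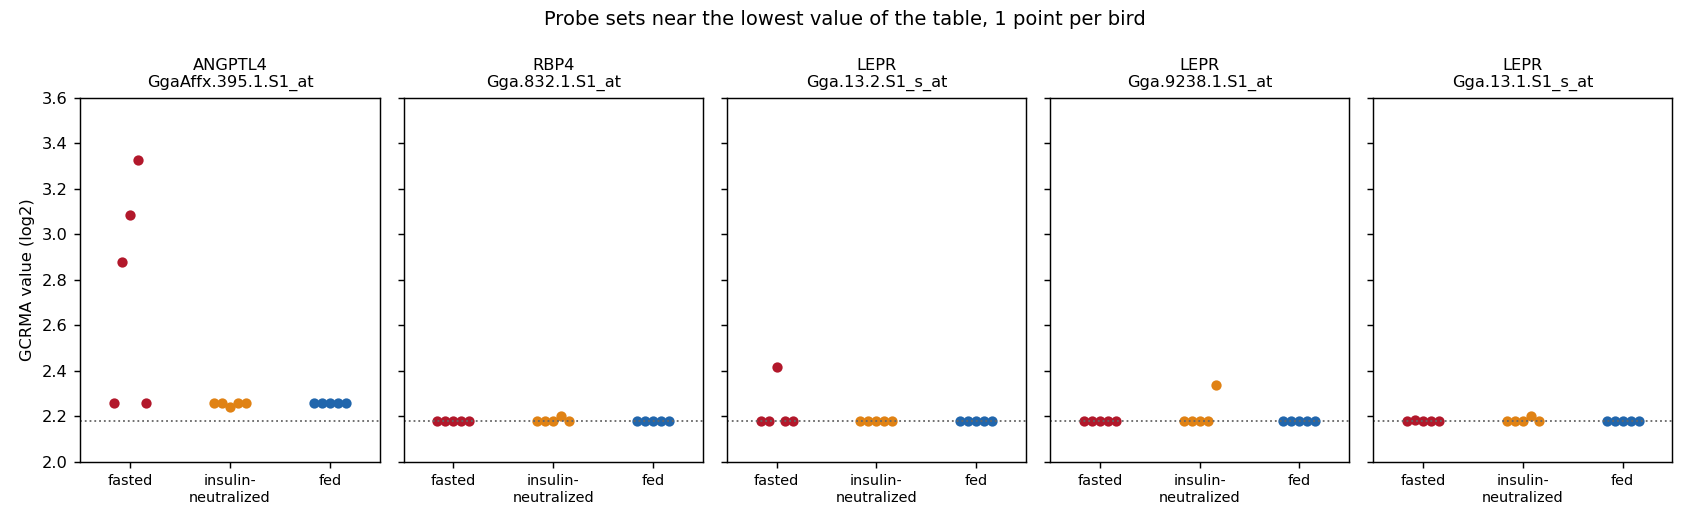
Log2 GCRMA values of the ANGPTL4, RBP4 and LEPR probe sets, 1 point per bird, on 1 shared axis; the dotted line is the lowest value of the table, 2.18. Fasted birds 2, 3 and 4 stand off on ANGPTL4, at 2.88 to 3.33, while the other probe sets stay at or below 2.42.

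The genes around these members were followed in 9 lists of pathway genes. Of the listed genes 92 were kept, each represented by its probe set of highest mean. In fasted vs. fed birds 6 of them were called higher and 4 lower, where 4.93% and 5.77% of all 9243 genes so represented were called higher and lower. Insulin-neutralized vs. fed birds had 0 of 92 called by limma, with 12 at an unadjusted p under 0.05, where 0.595% of all genes were called and 20.1% had such a p. Insulin-neutralized vs. fasted birds had 1 called higher and 2 lower, where 1.69% and 2.67% of all genes were. Without fed birds 4 and 5 the counts were 7 higher and 6 lower in fasted vs. fed and 5 higher and 6 lower in insulin-neutralized vs. fasted birds, where 4.84% and 4.91% and then 4.07% and 4.92% of all genes were called, so that calls in the last comparison became more frequent over all genes as well.

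Of the list of NAD synthesis and use, the pathway in which NAMPT acts, 4 of 13 genes kept were called higher in fasted birds and 0 lower. Over all genes 4.93% were called higher and 5.77% lower in fasted vs. fed birds. The other genes of the list lay on both sides of 0, and the list's median log2 fold change was -0.01, against -0.05 over all genes. CD38, an enzyme that breaks down NAD, had values of 5.94, 6.28, 5.09, 5.24 and 5.87 in fasted, 4.68, 4.05, 4.56, 4.46 and 4.25 in insulin-neutralized birds and 4.10, 4.45, 3.71, 4.44 and 4.17 in fed birds. All fasted birds lay above all others, with a difference of 1.51 from fed birds (adjusted p = 0.000778 from limma), and insulin-neutralized birds were lower than fasted birds, with a difference of -1.28 (adjusted p = 0.00515).

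SIRT5, an NAD-dependent deacylase of mitochondria, had 9.98, 9.18, 9.40, 9.47 and 9.98 in fasted birds, 8.80, 8.18, 8.83, 8.25 and 8.52 in insulin-neutralized birds and 8.48, 8.52, 8.76, 9.35 and 9.05 in fed birds. Fasted and insulin-neutralized birds did not overlap, with a difference of -1.09 (adjusted p = 0.00983 from limma), while fed bird 4 overlapped with the fasted birds. The fasted vs. fed difference was 0.77 (adjusted p = 0.0327 from limma) and was 1.01 without fed birds 4 and 5 (adjusted p = 0.0124). That call was lost without any 1 of fasted birds 1, 4 and 5 and fed birds 1, 2 and 3, with adjusted p up to 0.0791. It was also lost with no filter (0.0831), with only the fasted and fed birds in the fit (0.0758) and with the comparisons adjusted together (0.0516). The calls of CD38 and the insulin-neutralized vs. fasted call of SIRT5 held under every alternative run.

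NADK, which makes NADP from NAD, was higher in fasted birds by a log2 difference of 0.91 (adjusted p = 0.0245 from limma), with fed birds 4 and 5 at 11.02 and 11.32 against 12.27 to 12.32 in the other fed birds. Without these birds the difference was 0.46 (adjusted p = 0.0264). The NADK call was lost without fasted bird 1, 3 or 4 or fed bird 5, with adjusted p up to 0.0575. It was also lost with no filter (0.0672) and with only the fasted and fed birds in the fit (0.0911). The other 3 probe sets of NADK were not called. SIRT1, an NAD-dependent deacetylase of the nucleus, was 0.37 higher (adjusted p = 0.0349 from limma), a call lost without fed birds 4 and 5 together (0.0658) and without any 1 of fasted birds 1, 2 and 4 and fed birds 1 and 5 (up to 0.0795). SIRT1 also lost its call with the comparisons adjusted together (0.055) and with bird number as a block (0.0726). Its second probe set had 0.20 (adjusted p = 0.738). NAPRT, NADSYN1 and NMRK1, which make NAD by other routes, had fasted vs. fed differences of -0.01, -0.01 and 0.06 (adjusted p of 0.935 or more from limma).

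**Figure D5:**
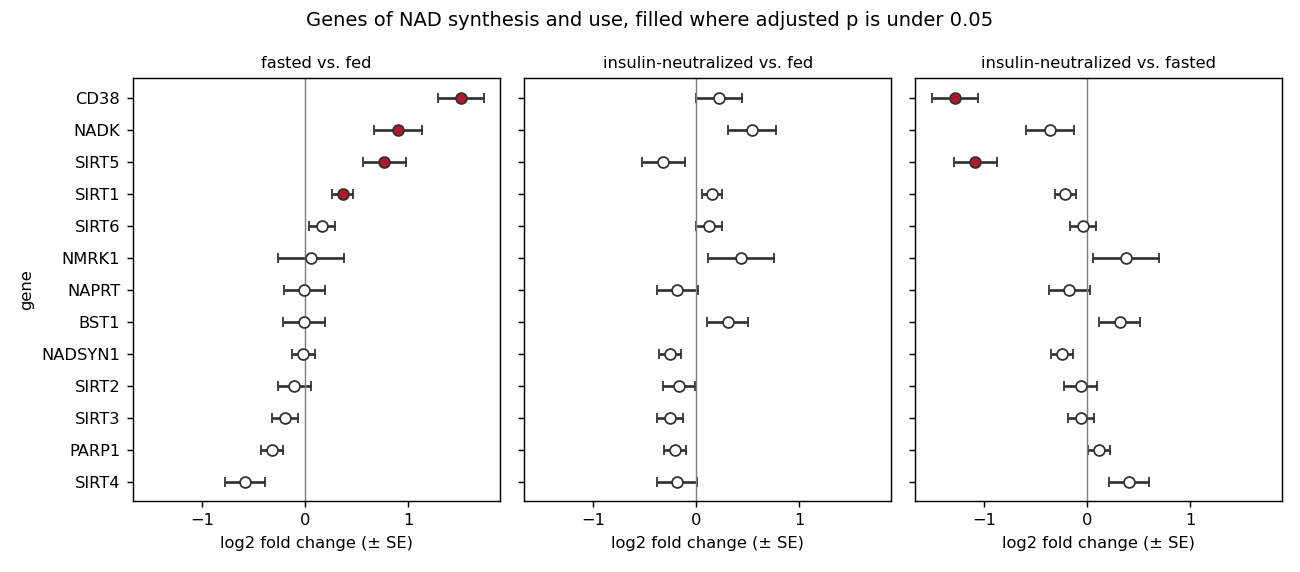
Log2 fold changes with their SE for the 13 genes of NAD synthesis and use that were kept, in 3 panels for the comparisons; filled points had an adjusted p under 0.05. CD38, NADK, SIRT5 and SIRT1 are filled in fasted vs. fed birds, at 1.51, 0.91, 0.77 and 0.37, and CD38 and SIRT5 in insulin-neutralized vs. fasted birds.

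Of the list of adiponectin signaling and secretion 12 genes were kept and PRKAG2 alone was called, 0.72 higher in fasted birds (adjusted p = 0.0308 from limma), while its second probe set had 0.91 (adjusted p = 0.0769). Over all genes 4.93% were called higher in this comparison. PRKAG2 is a regulatory subunit of AMP-activated protein kinase. Its catalytic partner PRKAA1 had a difference of 0.60 (adjusted p = 0.285 from limma), and the list's median was -0.10. The PRKAG2 call was lost without fed birds 4 and 5 (0.0847) and without any 1 of fasted birds 1, 4 and 5 and fed birds 1, 3 and 4 (up to 0.0797). It was also lost with no filter (0.0775) and with only the fasted and fed birds in the fit (0.0884). CDH13, the cadherin that binds adiponectin, had 0.51 (adjusted p = 0.48 from limma). The chaperone ERP44 and the oxidase ERO1A, which control the release of adiponectin from the cell, had -0.17 (adjusted p = 0.226) and -0.50 (adjusted p = 0.0932).

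Relatives of adiponectin (4 genes kept) and of its receptors (6 genes kept) had 1 call each. Both were lower in fasted vs. fed birds, where 5.77% of all genes were called lower. C1QTNF2, a secreted protein with the C1q domain that adiponectin also has, had 9.83, 10.12, 10.05, 10.45 and 10.46 in fasted birds, against 10.83, 11.13, 10.62, 10.95 and 11.19 in fed birds. All fasted birds lay below all fed birds, with a difference of -0.76 (adjusted p = 0.0334 from limma), and insulin-neutralized birds were higher than fasted birds by the same size (adjusted p = 0.0553). The call was lost without fed birds 4 and 5 together (0.117) and without any 1 of fasted birds 1, 2 and 3 and fed birds 1, 2, 4 and 5 (up to 0.0804). PAQR5, a receptor of the PAQR family that binds progesterone, had -0.78 (adjusted p = 0.0474 from limma), while its second probe set had -0.10 (adjusted p = 0.852). Without fed birds 4 and 5 PAQR5 had -0.55 (adjusted p = 0.191), and leaving out any of 12 single birds ended the call (up to 0.109). Most other settings ended it too, such as no filter (0.119) and array weights (0.149).

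Of the leptin receptor signaling list 11 genes were kept. In fasted vs. fed birds 1 was called higher and 1 lower, where 4.93% and 5.77% of all genes were. In insulin-neutralized vs. fasted birds 1 was called higher, where 1.69% of all genes were. PIK3R1, the regulatory subunit of phosphatidylinositol 3-kinase, which the insulin receptor also uses, had 12.27, 11.87, 11.87, 12.17 and 11.96 in fasted birds, 13.09, 12.73, 12.52, 12.69 and 12.62 in insulin-neutralized birds and 13.002, 12.79, 12.43, 12.51 and 12.37 in fed birds. Every fasted bird lay below every bird of the other groups. The difference of PIK3R1 was -0.59 in fasted vs. fed birds (adjusted p = 0.0179 from limma) and 0.70 in insulin-neutralized vs. fasted birds (adjusted p = 0.0141), and its other 2 probe sets were called in the same directions. IRS4, an adaptor of insulin and cytokine receptors, was 0.57 higher in fasted birds (adjusted p = 0.0344 from limma). Its call was lost without any 1 of fasted birds 2, 4 and 5 and fed birds 1, 3 and 5 (up to 0.075). It was also lost with no filter (0.0781), with only the fasted and fed birds in the fit (0.0893) and with the comparisons adjusted together (0.0543). SOCS3, which leptin receptor signaling induces and which blocks it, had -0.21 in fasted vs. fed (adjusted p = 0.798 from limma) and -1.43 in insulin-neutralized vs. fed birds (adjusted p = 0.119). LEPROT, which shares its locus with the leptin receptor in mammals, had an insulin-neutralized vs. fasted difference of 0.26 (adjusted p = 0.0571 from limma).

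For the remaining members the surrounding genes had no call. Over all genes 4.93% were called higher and 5.77% lower in fasted vs. fed birds, so lists this short would hold few calls. Retinol transport and retinoid signaling, around RBP4, had 0 of 13 genes called by limma in each comparison, and RXRG, a retinoid receptor, came nearest with 0.94 in fasted vs. fed birds (adjusted p = 0.0852). The angiopoietin-like proteins and the lipoprotein lipase system, around ANGPTL4, had 0 of 11 called, with LPL at -0.41 in fasted vs. fed birds (adjusted p = 0.0932 from limma). Of the chemerin receptors only GPR1 was measured and kept, at 0.31 in fasted vs. fed birds (adjusted p = 0.116 from limma). Of 21 other secreted factors of adipose tissue METRNL alone was called. METRNL, a secreted protein that in mice acts on fat browning, had 11.95, 12.18, 12.48, 12.39 and 12.50 in fasted birds, against 12.76, 12.89, 12.63, 13.42 and 12.85 in fed birds. The groups did not overlap, with a difference of -0.61 (adjusted p = 0.0175 from limma, and 0.0462 without fed birds 4 and 5). With only the fasted and fed birds in the fit METRNL was not called (0.066).

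Markers of the cell types in the tissue were set beside these values. The mean log2 value of the 6 leukocyte markers, all kept and none called, ranged from 11.42 to 12.07 in fasted, from 11.15 to 11.68 in insulin-neutralized and from 11.29 to 11.66 in fed birds, and fasted bird 2, the highest on NAMPT, was also the highest here. Fasted bird 4, with the next highest NAMPT on the first probe set, stood at 11.49, inside the range of the fed birds. The 7 adipocyte markers ranged from 12.37 to 12.93 in fasted, from 12.34 to 13.01 in insulin-neutralized and from 13.03 to 13.20 in fed birds. Their mean in fasted birds 1 to 5 was 12.92, 12.37, 12.82, 12.68 and 12.93. That is the reverse of the order of these birds on the first NAMPT probe set. In the insulin-neutralized and in the fed birds the orders were not the reverse of each other. Of the adipocyte markers PPARG and CEBPA, transcription factors of adipocyte differentiation, were lower in fasted vs. fed birds, at -0.82 (adjusted p = 0.0193 from limma) and -1.48 (adjusted p = 0.00809), the first lost without fasted bird 4 (0.0534). PPARG was also not called with no filter (0.0512), and its other 2 probe sets had -0.60 (adjusted p = 0.157 from limma) and -0.41 (adjusted p = 0.48). CIDEC, a lipid droplet protein, was lower in insulin-neutralized vs. fasted birds, at -0.84 (adjusted p = 0.0356 from limma). The call needed fasted birds 1, 3, 4 and 5 as well as birds 3, 4 and 5 of the insulin-neutralized group (adjusted p up to 0.0911 without 1 of them). It was also lost with no filter (0.0963), with centred arrays (0.0516) and with only these groups in the fit (0.0515). Of the other marker lists, stroma (6 kept), erythrocyte (2 kept), mesothelium (2 kept) and liver (ALB kept) had no call. Single birds stood far apart on some of them: ALB, the plasma protein albumin, lay between 3.31 and 15.59 in fasted, 5.86 and 15.07 in insulin-neutralized and 4.50 and 7.85 in fed birds. The highest were fasted bird 5, which was the lowest fasted bird on NAMPT, and insulin-neutralized bird 1, the lowest bird on the second probe set of ADIPOR2. Next on ALB came insulin-neutralized birds 5 and 4. Bird 5 was the highest of its group on the second probe set of NAMPT (6.86) and the lowest on the first (9.54). Bird 4 stood with bird 2 at the top of its group on the second probe set of ADIPOR2, both at 9.55. FGA, FGB and AHSG, the other liver markers listed, were removed by the filter, so ALB alone stood for liver. TTR, a gene of the retinol transport list, also spread widely. It lay between 4.53 and 13.14 in fasted, 4.12 and 12.10 in insulin-neutralized and 4.07 and 5.63 in fed birds. Whether TTR and ALB were high in the same birds was not tested. The mean of the mesothelium markers lay between 6.85 and 10.67 in fasted, 6.58 and 10.59 in insulin-neutralized and 4.74 and 11.08 in fed birds. Fasted bird 2 was the highest fasted bird here too, and fasted bird 4 stood at 8.16, below fasted bird 3 at 8.71. Of the 5 endothelial markers CDH5 alone was called, 0.45 higher in fasted vs. fed birds (adjusted p = 0.0389 from limma, and 0.112 without fed birds 4 and 5). Leaving out any of 10 single birds ended that call (up to 0.086), as did other settings such as no filter (0.0741). PECAM1, VWF and TEK had 0.50, 0.28 and 0.30, and KDR had -0.87 (adjusted p of 0.0772 or more from limma). The muscle actin ACTA1 was lower in fasted vs. fed birds, at -1.10 (adjusted p = 0.0139 from limma, and 0.0622 without fed birds 4 and 5). In insulin-neutralized vs. fasted birds, where NAMPT was lower, ACTA1 was higher by 1.25 (adjusted p = 0.0139 from limma), a call that held under every alternative run. TNNT3, the other skeletal muscle marker kept, was not called. It had -0.51 in fasted vs. fed (adjusted p = 0.422 from limma) and 0.65 in insulin-neutralized vs. fasted birds (adjusted p = 0.393). The part of cell composition in the differences of NAMPT and ADIPOR2 was not tested.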

How the data were processed

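Values were the GCRMA signals on the log2 scale that the authors deposited, 1 column per bird. GCRMA corrects background by probe sequence, quantile-normalizes the arrays and combines the probes of a set. R 2.9.0 and GCRMA are named in the submitters' processing notes. Groups came from the sample labels.

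From these values 96 controls were left out, and 19827 probe sets below 3 on at least 5 arrays were removed. The other reading of the methods' filter keeps 18919. The groups' means were fitted to all 15 arrays with limma 3.58.1 in R 4.3.3 (12 residual degrees of freedom, prior 2.07), and p-values were adjusted by Benjamini-Hochberg over the 18612 probe sets within each comparison. A log2 fold change had a median SE of 0.177. The number of arrays limits the precision. The alternatives were 11 other settings and each bird left out in turn.

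Members, gene lists (9 for pathways, 8 for marker genes of cell types) and the rule for naming genes were chosen with earlier results of these data known. All members were named, and up to 4 called genes per list, each by its probe set of highest mean. Some list genes without a call were also named, outside this rule and with their values known. For a called member, the 3 genes most correlated with it were also named. Metabolite and RT-PCR measurements were not used here. Figures were drawn with matplotlib 3.10.9.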

Additional observations from a re-analysis of the deposited data

Results flagged for a closer look

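Of the 31 groups of 5 birds in which a member probe set varied at all, 7 held a bird set apart from the others of its group, where chance gives about 1 in 20. ADIPOQ was 13.6 in fed bird 5, against 12.72 to 12.90 in the other fed birds. This bird was also among those with the lowest correlation to the other arrays, whose part in the ADIPOQ value was not tested.

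The other 6 lay at the bottom of the scale, where the remaining birds of a group shared a single value and any departure stands out. RBP4 was 2.199 in insulin-neutralized bird 4, against 2.18 in the rest of the group. ANGPTL4 was 2.242 in insulin-neutralized bird 3, below the 2.257 of the rest of the group. The 3 LEPR probe sets gave 2.184 in fasted bird 2 and 2.2 in insulin-neutralized bird 4 on one, 2.417 in fasted bird 3 on another and 2.336 in insulin-neutralized bird 5 on the remaining probe set, against 2.18 in the rest of each group.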

How the results depend on the processing

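Of the member results, 214 of 225 kept direction and side of the threshold under the 11 other settings, and 286 of 315 when 1 bird was left out. Most of these results had no call, so most of this agreement is of results that stayed uncalled. Among the NAMPT calls, the insulin-neutralized vs. fasted call on the second probe set held in 20 of 25 alternatives. The other NAMPT calls held in every alternative that included them. Calls of the other genes named, among them ACSL4, COQ10B and EAF2, held in 236 of 275 and 311 of 375 cases. In fasted vs. fed birds 2 member probe sets were called, and 1 with 1 probe set per gene, which keeps a single NAMPT probe set. In insulin-neutralized vs. fasted birds 2 were called, against 1 with no filter, 1 with only the groups compared, 4 when arrays were weighted, 1 with 1 probe set per gene, and 1 to 3 when a bird was left out. RARRES2 changed sign in fasted vs. fed birds when arrays were weighted (0.11) or without fed birds 4 and 5 (0.20), and in insulin-neutralized vs. fed birds without fed birds 4 and 5 (0.0066). ADIPOQ changed sign in insulin-neutralized vs. fed birds when arrays were weighted (0.0725) or without fed birds 4 and 5 (0.0814). Leaving out 1 bird, values crossed 0 for ADIPOQ (fasted vs. fed -0.10 to 0.16, insulin-neutralized vs. fed -0.17 to 0.11, insulin-neutralized vs. fasted -0.19 to 0.11), ADIPOR1 (fasted vs. fed -0.0586 to 0.10), RARRES2 (fasted vs. fed -0.14 to 0.0768) and ADIPOR2's first probe set (insulin-neutralized vs. fed -0.0352 to 0.11). None of these was called, and the cause was not tested.

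Calls over all probe sets moved as well. Fasted vs. fed birds had 1794, against 1186 with no filter, 960 with only these groups, 1063 with 1 probe set per gene, and 1180 to 1832 with a bird left out. Insulin-neutralized vs. fed birds had 92, against 41 with no filter, 55 with centred arrays, 6 with only these groups, 187 when arrays were weighted, 383 with the comparisons adjusted together, 31 without fed birds 4 and 5, and 7 to 142 with a bird left out. Insulin-neutralized vs. fasted birds had 756, against 466 with no filter, 1789 when arrays were weighted, 455 with 1 probe set per gene, 1512 without fed birds 4 and 5, and 436 to 934 with a bird left out.

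Bird numbers are shared between the groups. After the group means were taken out, same-numbered birds of different groups correlated at -0.392 to 0.382, over 0.1 in 7 of 15 pairs. On this measure a bird correlated best with its own number in 12 of 30 cases, against 6 by chance. The main fit did not take the numbers as pairing the birds, and whether they do was not settled. With the number as a replicate block, 2, 0 and 3 member probe sets were called, the last including ADIPOR2's second probe set (adjusted p = 0.0484 from limma), and 1537, 8 and 638 of all probe sets.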
